A study of Mus musculus with 9 samples.

Results

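The collagen genes of NP53 cells were read in 9 RNA-seq libraries. Members were the genes whose symbol starts with Col, a number, the letter a and a number, and 45 of the 55401 genes in the files had such a symbol. Of these, 44 encode collagen chains. The other, Col4a3bp, encodes the ceramide transfer protein and is counted apart. NP53 is a mouse cell line of diffuse midline glioma, a tumour of the brain stem and midline, grown in DMEM with serum. G1C7 and G2C9 are derivatives of NP53 whose genotype label is TIM-3 knockout, and Gcontrol is the line itself with the wild-type label, with 3 libraries in each group. Havcr2 encodes TIM-3, a receptor studied mostly on immune cells. The labels say neither which bases were edited, nor whether a derivative is 1 clone, nor whether libraries came from separate cultures. The p-values below therefore measure only the spread between these libraries. The libraries held 50110129 to 56035382 reads in genes, and the values are CPM, reads per 1000000 reads of the scaled library size, or CPM per kilobase of exon where genes are set against each other.

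Collagens are secreted or membrane proteins whose chains wind around each other in a rope-like helix. Fibrillar collagens build the thick fibres of skin, bone and tendon, basement membrane collagens form the sheets under epithelia and around vessels, and network collagens form lattices and beaded filaments. Fibril-associated collagens sit on the surface of fibres, and transmembrane collagens stay anchored in the plasma membrane. In normal brain most collagen lies in the basement membranes of blood vessels, and fibrillar collagens are scarce in the tissue between them.

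Most collagens were higher in G1C7 replicate 2 and in G2C9 replicate 3, the 2 libraries that stood apart within their groups. The second principal component of all genes, with 24.8% of the variance, placed these libraries at -79.4 and -49.8 and the other 7 between 4.13 and 30.5. Havcr2 itself had 1.03, 0.109 and 1.21 CPM in the G1C7 libraries, 0.772, 0.612 and 0.547 CPM in G2C9 and 1.37, 1.07 and 1.06 CPM in Gcontrol. The gene-wide count does not show the edited bases, so it does not check the knockout. Of 9 glioma and oligodendrocyte precursor markers, Olig1, Olig2 and Ptprz1 were at 0 in all 9 libraries and Sox10 was near 0. Sox2 had 58.6, 21.3 and 53.8 CPM in G1C7, 40.1, 40.8 and 23.1 CPM in G2C9, and 69.3, 69.8 and 69.3 CPM in Gcontrol, lowest in the libraries that stood apart. Cspg4, which encodes the precursor proteoglycan NG2, averaged 1.30 ± 0.341 CPM in G1C7, 4.26 ± 1.04 CPM in G2C9 and 43.5 ± 4.72 CPM in Gcontrol (SD, n = 3 each), separate in every library. Pdgfra, the most abundant of the list, had 332, 491 and 331 CPM in G1C7 and 414, 390 and 541 CPM in G2C9. In Gcontrol it had 249, 238 and 257 CPM. Nes, the next most abundant, averaged 152 ± 5.03 CPM in G1C7 and 96.1 ± 5.67 CPM in G2C9, against 117 ± 7.86 CPM in Gcontrol. Every G1C7 library lay above all Gcontrol libraries for Nes, and every G2C9 library lay below them. Gfap had at most 0.333 CPM in any library. With Pdgfra the list summed to 536 to 663 CPM in G1C7, 531 to 659 CPM in G2C9 and 454 to 498 CPM in Gcontrol, and without it to 172 to 219 CPM, 119 to 146 CPM and 216 to 240 CPM in the same groups.

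Of the 44 collagen genes, 29 passed the filter on low counts and were tested. The 15 others were Col2a1 and Col24a1 (fibrillar), Col4a3, Col4a4 and Col4a6 (basement membrane), Col6a5, Col6a6 and Col10a1 (network), Col13a1 (transmembrane), Col9a1, Col9a2, Col14a1 and Col19a1 (fibril-associated), and Col26a1 and Col28a1. None of these 15 exceeded 20 reads in a library or 63 reads over the 9 libraries. Col9a1, Col9a2, Col13a1 and Col19a1 had 0 reads in all 9. Both mates of a pair were counted, so a floor of 3 read pairs is 6 reads, which is 0.106 to 0.122 CPM in a library.

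In Gcontrol, the type I chains were the highest collagens per length. Col1a1 reached 413 ± 21.0 CPM per kilobase (SD, n = 3) and Col1a2 reached 129 ± 2.45. Col6a1, a chain of the beaded filaments, followed at 73.9 ± 5.15 CPM per kilobase, and Col3a1 and Col5a1 at 66.2 ± 1.51 and 61.5 ± 4.12, with overlapping libraries between these last ones. The type IV chains Col4a1 and Col4a2, of the common basement membrane network, stood at 46.2 ± 3.34 and 38.1 ± 2.64 CPM per kilobase. Col1a1, Col1a2 and Col6a1 were also the highest in G1C7, at 319 ± 189, 123 ± 81.6 and 105 ± 57.3 CPM per kilobase, and in G2C9, at 263 ± 110, 105 ± 54.0 and 89.8 ± 28.8. The transmembrane chains were far lower: their highest member in Gcontrol, Col23a1, had 1.65 ± 0.137 CPM per kilobase.

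**Figure D1:**
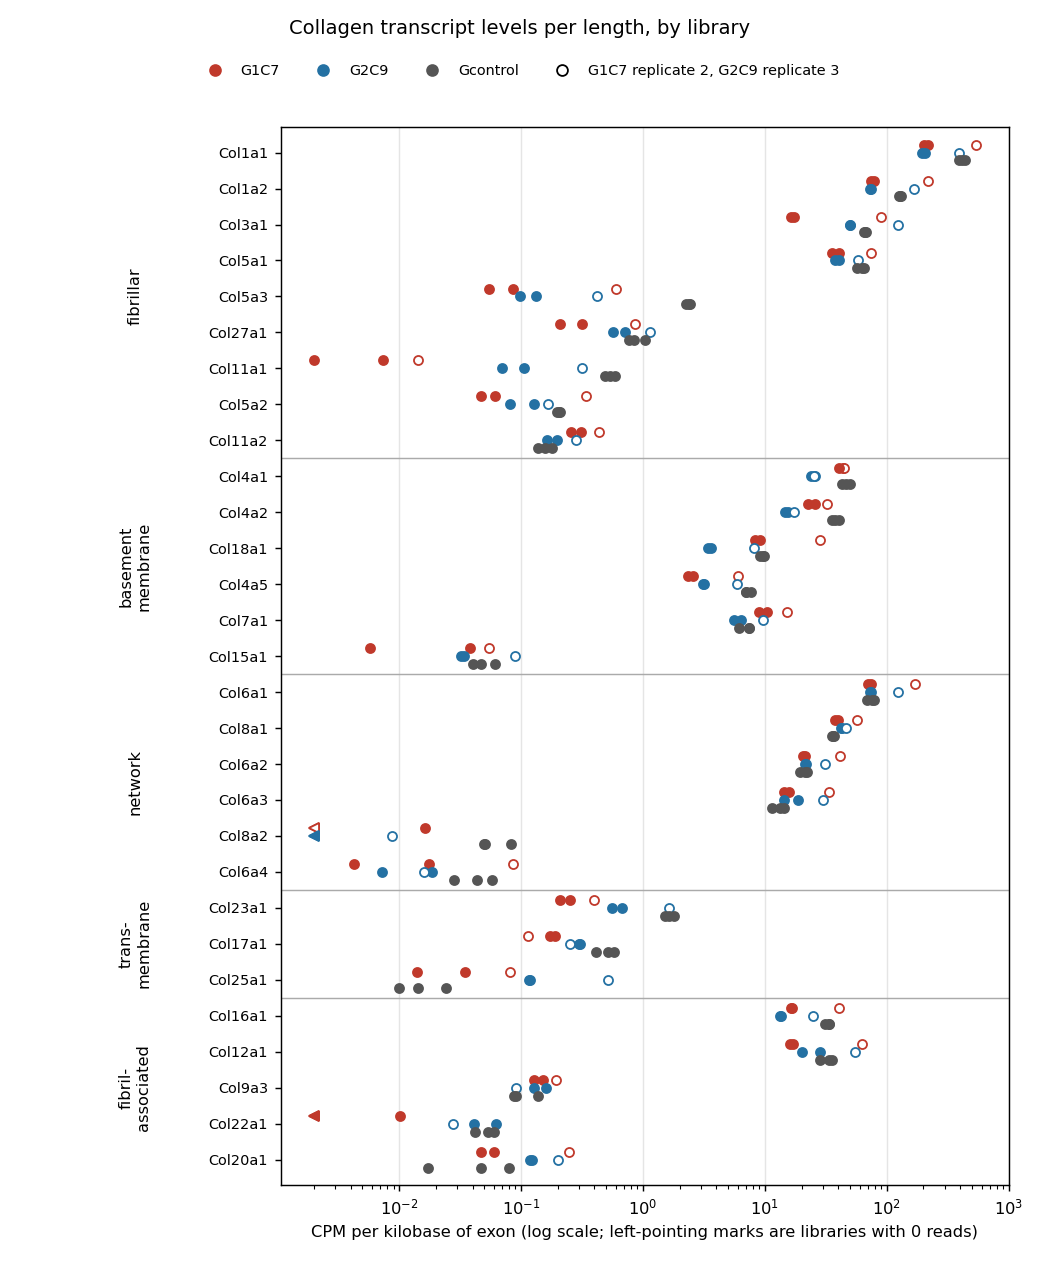
CPM per kilobase of exon (log axis) of the 29 tested collagens in each library, grouped by collagen type and ordered by the Gcontrol mean. Red points are G1C7, blue points G2C9 and grey points Gcontrol; open points are G1C7 replicate 2 and G2C9 replicate 3, which lie to the right of their groups for most genes, and marks at the left edge are libraries with 0 reads or a level under the axis.

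Single collagen chains were far lower in the derivatives, while most of the family did not pass the test. In G1C7 against Gcontrol, 7 of 29 collagens (24.1%) passed the edgeR test at an adjusted p under 0.05, beside 17.5% of the 15659 genes tested. Of these, 1 was higher (Col11a2), against a background of 8.77%. The 6 lower ones were Col11a1, Col5a3, Col4a2, Col23a1, Col17a1 and Col22a1, against a background of 8.73%. In G2C9 against Gcontrol, 5 of 29 (17.2%) passed, beside 13.5% of all genes. Col25a1 was higher (background 6.25%), and Col4a1, Col4a2, Col5a3 and Col8a2 were lower (background 7.22%).

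Lower by at least 2-fold were 5 of 29 collagens in G1C7 (background 4.44%) and 3 of 29 in G2C9 (background 3.95%). The median log2 fold change of the 29 collagens was -0.30 in G1C7 and -0.30 in G2C9, against 0.02 and 0.01 for all genes tested. The groups did not overlap for 12 of 29 collagens in G1C7 (background 43.0%) and for 16 of 29 in G2C9 (background 43.3%). Both comparisons use the same Gcontrol libraries, so their values stand side by side only. Between the derivatives, 3 of 29 collagens (10.3%) differed, beside 3.36% of all genes. Col4a1 and Col4a2 were higher in G1C7 than in G2C9 (background 1.71%), and Col11a1 was lower (background 1.65%); the derivatives did not overlap for 8 of 29 (background 18.2%). In these bulk libraries, fewer cells with a transcript and less of it per cell cannot be told apart.

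**Figure D2:**
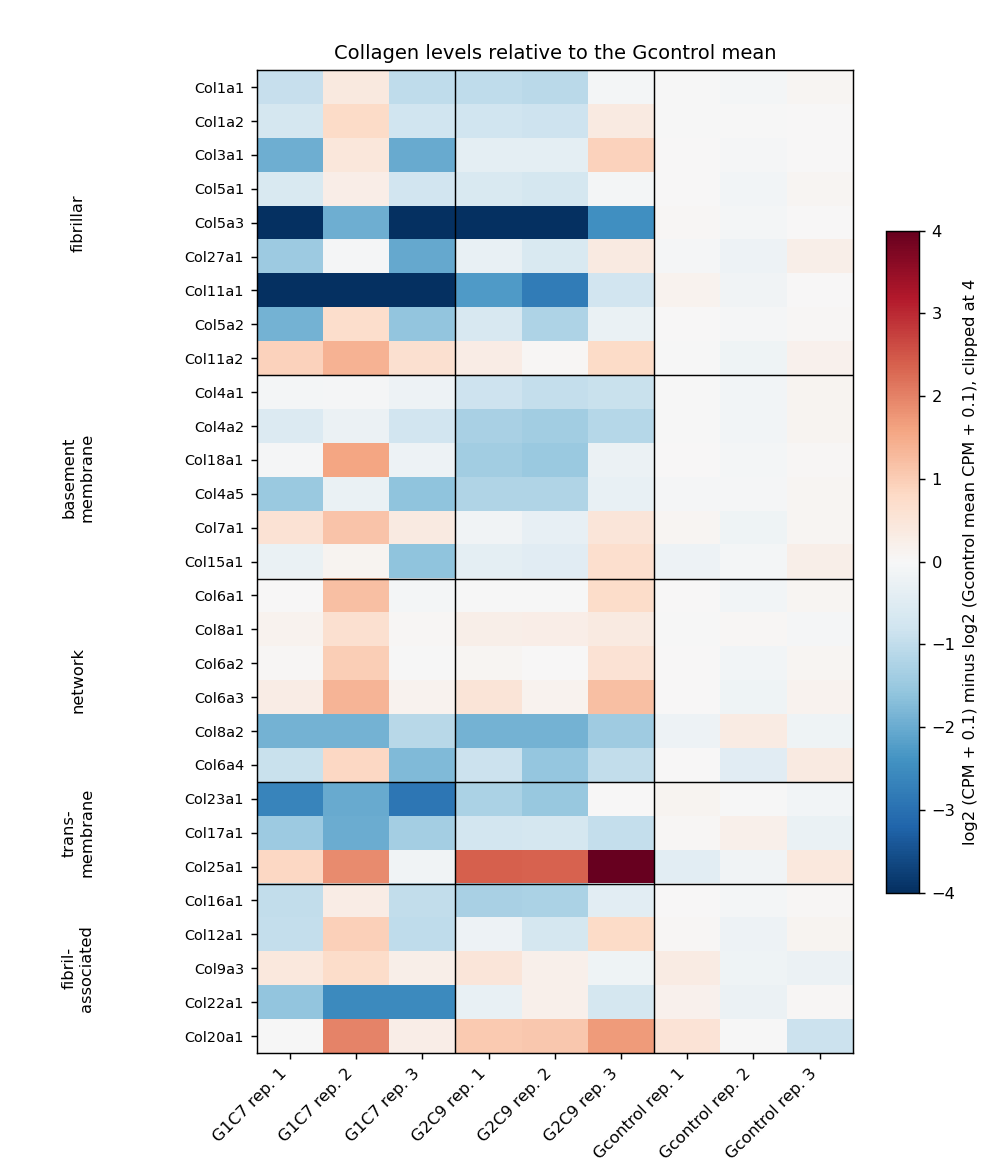
Each tested collagen in each library relative to the Gcontrol mean, as a log2 difference with 0.1 CPM added, red above and blue below, with colours held at 4 in either direction. Col11a1 is dark blue in G1C7, and Col5a3 is blue in every library of both derivatives, paler in G1C7 replicate 2 and G2C9 replicate 3. Col25a1 is red in G2C9, and the columns of G1C7 replicate 2 and G2C9 replicate 3 are redder than those of their groups.

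The 2 libraries that stood apart shared a raised collagen level. G1C7 replicate 2 was above both other G1C7 libraries for 26 of 29 collagens, beside 46.1% of all genes, and at least 2 times their mean for 17 of 29, beside 14.5%. G2C9 replicate 3 was above both other G2C9 libraries for 24 of 29, beside 45.1%, and at least 2 times their mean for 10 of 29, beside 11.1%. Over the 27 collagens with reads in all 9 libraries, the median ratio to the mean of the group's other libraries was 2.45 in G1C7 replicate 2 and 1.76 in G2C9 replicate 3, against 1.01 and 1.01 over 15043 genes. For 25 of these 27 the ratio was above 1 in both libraries. Across these 27 genes the log2 ratios of both libraries gave Pearson's r of 0.57 and Spearman's rho of 0.62, as a description of 2 libraries whose genes share each library. Over all 15043 genes, r was 0.67.

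The summed level of all collagens was 4990, 11897 and 4639 CPM in the G1C7 libraries, 5111, 4801 and 9425 CPM in G2C9, and 8009, 7584 and 8340 CPM in Gcontrol. In both derivatives, the library that stood apart lay above Gcontrol and the others below it. Fibrillar collagens summed to 2925, 7765 and 2719 CPM in G1C7, 3119, 3007 and 6382 CPM in G2C9, and 5520, 5310 and 5750 CPM in Gcontrol. The network collagens summed to 1005, 1943 and 946 CPM in G1C7, 1055, 1008 and 1521 CPM in G2C9, and 948, 889 and 975 CPM in Gcontrol. Without the library that stood apart, the fibrillar sum was 0.511 times the Gcontrol mean in G1C7 and 0.554 times in G2C9, and the network sum was 1.04 and 1.10 times.

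**Figure D3:**
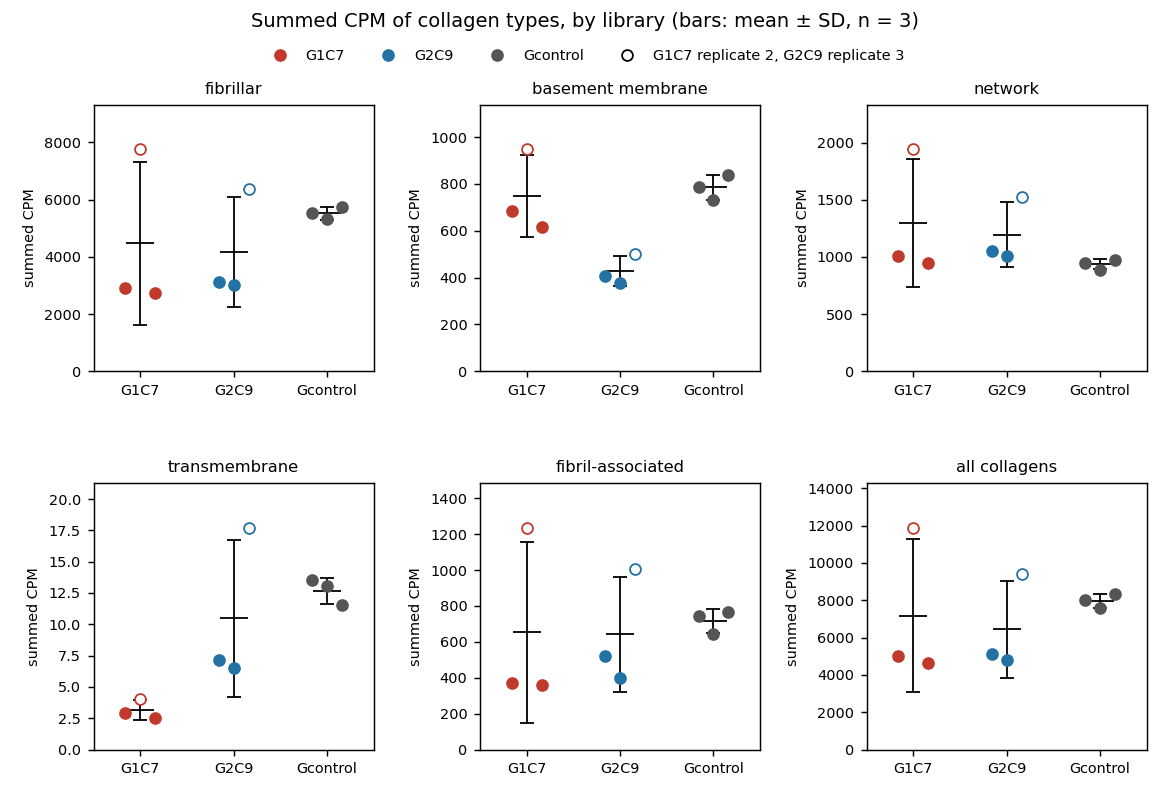
Summed CPM of each collagen type in each library, with bars for mean ± SD (n = 3). The open points, G1C7 replicate 2 and G2C9 replicate 3, stand well above the filled points of their groups for fibrillar (7765 and 6382 CPM) and fibril-associated collagens, and the basement membrane sum of G2C9 stays below Gcontrol in all 3 libraries.

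With both of these libraries left out, a choice made after the data were seen, more genes of every kind passed the test. In G1C7 against Gcontrol, 18 of 30 collagens (Col24a1 then passed the filter) were lower and 3 higher, beside 27.9% and 26.4% of 15808 genes. In G2C9, 18 of 30 were lower and 3 higher, beside 27.6% and 25.4%. At least 2-fold lower were 12 of 30 in G1C7 (background 9.27%) and 11 of 30 in G2C9 (background 8.74%). Between the derivatives, 5 of 30 were higher in G1C7 and 10 lower, beside 14.8% and 12.5%. The collagen medians against Gcontrol were then -0.97 in G1C7 and -0.70 in G2C9 on the log2 scale, against -0.01 and -0.01 for all genes. Of the 10 fibrillar collagens 9 were lower in each derivative. All 15 collagen results called with 9 libraries, over the 3 comparisons, were also called in this fit.

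**Figure D4:**
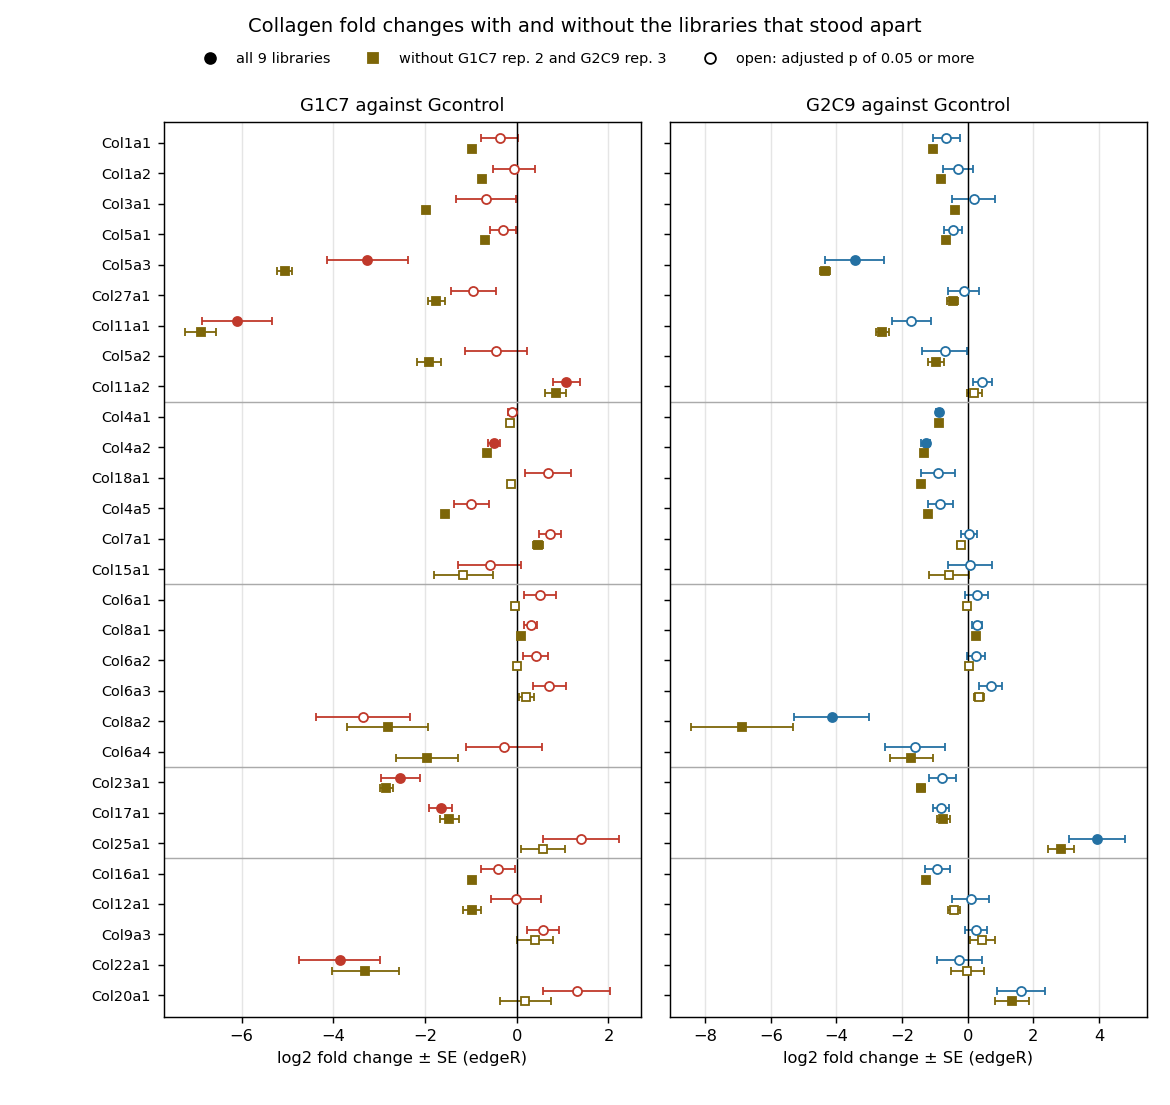
The log2 fold change ± SE of each tested collagen against Gcontrol, in G1C7 (left) and G2C9 (right), with all 9 libraries (circles) and without G1C7 replicate 2 and G2C9 replicate 3 (squares); open marks did not pass the test. The squares of most fibrillar genes lie left of 0 with short bars, while the circles of Col1a1, Col1a2 and Col3a1 have bars that reach or come near 0.

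Markers of other cell types were read beside the collagens, and a few were also higher in the libraries that stood apart. Of 6 fibroblast markers, Thy1, Lum and Fap had at most 0.332 CPM in any library, while decorin (Dcn), a small proteoglycan on collagen fibres, had 296, 873 and 312 CPM in G1C7, 902, 925 and 2572 CPM in G2C9, and 784, 835 and 744 CPM in Gcontrol. Pdgfrb, the next most abundant of these markers, had 323, 216 and 305 CPM in G1C7, 328, 315 and 335 CPM in G2C9, and 241, 228 and 256 CPM in Gcontrol, lowest of all in G1C7 replicate 2. The fibroblast list summed to 619 to 1094 CPM in G1C7, 1233 to 2917 CPM in G2C9 and 1003 to 1067 CPM in Gcontrol, and without Dcn to 220 to 326 CPM, 318 to 345 CPM and 232 to 259 CPM in the same groups. Of 6 pericyte and smooth muscle markers, only Acta2 was abundant, at 702, 1468 and 739 CPM in G1C7, 778, 824 and 871 CPM in G2C9, and 594, 602 and 611 CPM in Gcontrol. Without Acta2 that list summed to at most 1.38 CPM in a library, with Rgs5, Abcc9 and Kcnj8 at 0 in most.

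The 6 endothelial markers summed to 1.37 to 1.68 CPM in G1C7, 3.73 to 4.70 CPM in G2C9 and 1.02 to 1.27 CPM in Gcontrol, with Tie1, Emcn and Cldn5 at 0 throughout. Cdh5, the highest of them, had 1.27, 0.855 and 1.24 CPM in G1C7 and 3.78, 3.28 and 3.59 CPM in G2C9. In Gcontrol it had 0.795, 0.776 and 0.617 CPM. Without Cdh5 the list summed to 0.365 to 0.51 CPM in G1C7 and 0.356 to 1.11 CPM in G2C9. The same sum was 0.406 to 0.499 CPM in Gcontrol. The 6 immune markers summed to at most 5.41 CPM in any library, with Cd3e at 0. Haptoglobin (Hp), an acute-phase protein, had 4.08, 205 and 4.05 CPM in G1C7, 21.5, 20.3 and 492 CPM in G2C9, and 3.62, 2.99 and 3.86 CPM in Gcontrol. The part of any of these genes in the collagen differences was not tested.

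Among the fibrillar collagens, Col5a3 was lower in both derivatives. Col5a3 encodes a chain of type V collagen, which sits inside fibrils and limits their width; the gene (ENSMUSG00000004098.7) lies on chromosome 9, 20770050 to 20815067, minus strand (GRCm38). It had 0.374, 4.08 and 0.584 CPM in G1C7, 0.673, 0.898 and 2.87 CPM in G2C9, and 16.5, 15.4 and 16.3 CPM in Gcontrol. Every derivative library lay below every Gcontrol library, and the libraries that stood apart were the highest of their groups. The log2 fold change was -3.26 ± 0.89 in G1C7 and -3.44 ± 0.90 in G2C9 (adjusted p = 0.0373 and 0.0377). The call in G1C7 ended without any 1 of 6 libraries (G1C7 replicate 1 or 3, G2C9 replicate 2, or any Gcontrol replicate), at -3.30 to -2.79 (adjusted p = 0.0533 to 0.0989). In G2C9 it ended without any 1 of 5 (G2C9 replicate 1 or 2, or any Gcontrol replicate), at -3.46 to -3.10 (adjusted p = 0.0975 to 0.128). Leaving out the 2 libraries that stood apart gave -5.06 ± 0.16 in G1C7 and -4.35 ± 0.15 in G2C9, which both passed. DESeq2 gave Col5a3 no adjusted p in either derivative. Without the filter on low counts the edgeR calls ended (adjusted p = 0.116 in G1C7 and 0.121 in G2C9). A replicate block in edgeR ended them too (adjusted p = 0.0609 and 0.0714).

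Col11a1, a chain of type XI collagen that starts fibrils in cartilage, was nearly unread in G1C7. The gene (ENSMUSG00000027966.20) lies on chromosome 3, 114030540 to 114220718, plus strand. It had 5, 10 and 1 reads in the G1C7 libraries, 68, 44 and 206 in G2C9, and 408, 336 and 390 in Gcontrol. All 3 groups were separate, with G1C7 lowest and Gcontrol highest. The normalized level in Gcontrol was 70.2 times that in G1C7 (95% counting interval 35.4 to 163) and 3.27 times that in G2C9 (2.74 to 3.92). Intervals and floors cover counting error only. In edgeR, the log2 fold change was -6.10 ± 0.77 in G1C7 (adjusted p = 0.00149), called without each of the 9 libraries in turn. In G2C9 it was -1.72 ± 0.59 (adjusted p = 0.0936), and it passed without G1C7 replicate 2 (adjusted p = 0.0363) or without G2C9 replicate 3, at -2.61 (adjusted p = 0.0122). Between the derivatives, G1C7 against G2C9, it was -4.38 ± 0.74 (adjusted p = 0.0168), a call that ended without G1C7 replicate 1 at -4.35 (adjusted p = 0.0707) or replicate 3 at -3.90 (adjusted p = 0.0544).

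Col11a2, which encodes another chain of type XI collagen (ENSMUSG00000024330.17, chromosome 17, 34039437 to 34066685, plus strand), was higher in G1C7. It had 2.15, 2.98 and 1.75 CPM in G1C7, 1.37, 1.12 and 1.93 CPM in G2C9, and 1.07, 0.942 and 1.23 CPM in Gcontrol. G1C7 lay above Gcontrol in 3 of 3 libraries, and G2C9 overlapped both groups. The log2 fold change in G1C7 was 1.08 ± 0.29 (adjusted p = 0.0362). The call ended without any 1 of 6 libraries (G1C7 replicate 1 or 2, G2C9 replicate 1, or any Gcontrol replicate), at 0.85 to 1.18 (adjusted p = 0.0526 to 0.135). In G2C9 it was 0.44 ± 0.29 (adjusted p = 0.378).

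The most abundant fibrillar chains did not pass the test with 9 libraries. Col1a1, the main chain of type I collagen, had 1424, 3521 and 1328 CPM in G1C7, 1344, 1282 and 2559 CPM in G2C9, and 2697, 2581 and 2856 CPM in Gcontrol. Col1a2, its partner chain, had 981, 2704 and 918 CPM in G1C7, 923, 902 and 2075 CPM in G2C9, and 1600, 1571 and 1632 CPM in Gcontrol. Col3a1, the chain of type III collagen in vessel walls and other elastic tissues, had 169, 888 and 161 CPM in G1C7, 493, 493 and 1222 CPM in G2C9, and 652, 634 and 664 CPM in Gcontrol. For each of these genes, G1C7 replicates 1 and 3 and G2C9 replicates 1 and 2 were below all Gcontrol libraries. G1C7 replicate 2 was above all of them, and G2C9 replicate 3 was above them for Col1a2 and Col3a1.

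The log2 fold changes in G1C7 were -0.37 ± 0.40 for Col1a1, -0.06 ± 0.46 for Col1a2 and -0.68 ± 0.66 for Col3a1 (adjusted p = 0.57, 0.942 and 0.526). In G2C9 they were -0.65 ± 0.40, -0.30 ± 0.46 and 0.18 ± 0.65 (adjusted p = 0.341, 0.734 and 0.901). Without G1C7 replicate 2 alone, Col1a1 and Col3a1 passed in G1C7 at -0.97 and -1.97 (adjusted p = 0.0326 and 0.00718). Col1a2 was then at -0.75, and at 0.17 without replicate 1 and 0.20 without replicate 3. In G2C9, Col3a1 turned to -0.39 without replicate 3. Without both libraries that stood apart, Col1a1, Col1a2 and Col3a1 were lower in G1C7 at -0.98 ± 0.05, -0.75 ± 0.04 and -1.98 ± 0.04, and in G2C9 at -1.04 ± 0.05, -0.81 ± 0.04 and -0.40 ± 0.04, and all passed.

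Col5a1, the most abundant type V chain, had 345, 630 and 306 CPM in G1C7, 345, 320 and 500 CPM in G2C9, and 533, 488 and 557 CPM in Gcontrol. Only the libraries that stood apart reached the Gcontrol range. The other tested fibrillar chains, Col5a2 and Col27a1, ranged from 0.449 to 3.26 CPM and from 2.70 to 14.8 CPM over the 9 libraries and did not pass either test against Gcontrol. Without G1C7 replicate 2, Col5a1, Col5a2 and Col27a1 passed in G1C7 at -0.69, -1.91 and -1.75 (adjusted p = 0.0247, 0.00453 and 0.00543).

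The windows before the transcription start of Col5a3, Col11a1 and Col3a1 are shown because the levels of these fibrillar genes differed between the groups or, for Col3a1, between libraries of 1 group. Each holds the 250 bases before the start (RefSeq, GRCm38.p6), 5′ to 3′ on the gene's strand. Capitals mark matches, on either strand, to the TATA box (TATAAA), the CCAAT box (CCAAT), the GC box (GGGCGG) or the AP-1 site (TGANTCA). The windows are chr9:20815068-20815317 (minus strand), chr3:114030290-114030539 and chr1:45311288-45311537.
Col5a3: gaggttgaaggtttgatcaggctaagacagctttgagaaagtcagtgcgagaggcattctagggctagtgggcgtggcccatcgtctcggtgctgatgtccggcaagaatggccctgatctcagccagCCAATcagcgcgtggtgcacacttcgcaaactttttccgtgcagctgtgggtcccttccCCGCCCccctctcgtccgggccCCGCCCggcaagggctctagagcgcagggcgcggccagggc
Col11a1: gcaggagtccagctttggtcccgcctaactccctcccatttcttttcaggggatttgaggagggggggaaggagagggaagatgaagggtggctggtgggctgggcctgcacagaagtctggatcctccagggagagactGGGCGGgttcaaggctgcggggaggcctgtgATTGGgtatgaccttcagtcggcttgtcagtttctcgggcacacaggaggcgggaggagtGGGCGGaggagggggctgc
Col3a1: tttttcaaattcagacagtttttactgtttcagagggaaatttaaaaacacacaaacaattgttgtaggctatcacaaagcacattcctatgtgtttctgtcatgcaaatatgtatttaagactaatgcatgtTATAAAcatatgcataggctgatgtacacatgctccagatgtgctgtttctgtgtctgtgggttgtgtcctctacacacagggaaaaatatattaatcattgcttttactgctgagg

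The Col5a3 window held 1 CCAAT match and 2 GC box matches, and so did the Col11a1 window. The Col3a1 window held 1 TATAAA match, whose first base lies 117 bases before the start, and none of the other motifs. Over the 38 windows of the 35 collagen genes in the table, TATAAA was in 13.2%, beside 12.4% of all 32851 windows of that length. CCAAT was in 34.2%, beside 33.8%, GGGCGG in 57.9%, beside 32.7%, and TGANTCA in 2.63%, beside 6.75%. A match is a run of letters and not a shown binding site.

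Among the basement membrane collagens, the type IV chains Col4a1 and Col4a2 were lower in G2C9 in every library. Col4a1 (ENSMUSG00000031502.11, chromosome 8, 11198423 to 11312826, minus strand) had 193, 179 and 187 CPM in G2C9 and 326, 335 and 300 CPM in G1C7, against 343, 321 and 370 CPM in Gcontrol. Col4a2 (ENSMUSG00000031503.13, chromosome 8, 11312805 to 11449287, plus strand) had 102, 96.1 and 114 CPM in G2C9 and 172, 215 and 150 CPM in G1C7, against 251, 235 and 270 CPM in Gcontrol. For both genes the G2C9 libraries lay below all others, and for Col4a1 the library that stood apart was 1.07 times the mean of the others in G1C7 and 1.01 times in G2C9. The log2 fold change in G2C9 was -0.89 ± 0.09 for Col4a1 (adjusted p = 0.000611) and -1.28 ± 0.14 for Col4a2 (adjusted p = 0.000925), both called without each of the 9 libraries in turn.

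In G1C7, Col4a2 was also below Gcontrol in 3 of 3 libraries, at -0.50 ± 0.14 (adjusted p = 0.0395), but the call ended without any 1 of 7 libraries, at -0.55 to -0.39 (adjusted p = 0.0528 to 0.13). It was kept only without G1C7 replicate 2 or G2C9 replicate 3. Col4a1 in G1C7 was at -0.11 ± 0.09 (adjusted p = 0.452). Between the derivatives, G1C7 exceeded G2C9 by 0.78 ± 0.09 for Col4a1 (adjusted p = 0.00246), called without each library, and by 0.78 ± 0.14 for Col4a2 (adjusted p = 0.0199). This last call ended without G1C7 replicate 1, G2C9 replicate 1 or 2, or Gcontrol replicate 1, at 0.71 to 0.80 (adjusted p = 0.0519 to 0.0902).

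Col4a1 and Col4a2 start head to head, and their gene models overlap by 22 bases on chromosome 8, from 11312805 to 11312826. The stretch at chr8:11312801-11312830 (plus strand, RefSeq GRCm38.p6) is shown because both starts lie in it, with the bases shared by both models in capitals.
Col4a1 and Col4a2 starts: cggcAGTGCGCGGGCGGCGTCTCCAAgggg

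Ratios between collagen chains were separate between groups for some pairs. Reads of Col4a1 over Col4a2 were 1.89, 1.56 and 2.00 in G1C7, 1.88, 1.87 and 1.64 in G2C9, and 1.37, 1.36 and 1.37 in Gcontrol. Both derivatives lay above Gcontrol in 3 of 3 libraries. The ratio of Col1a1 to Col1a2 was 1.45, 1.30 and 1.45 in G1C7, 1.46, 1.42 and 1.23 in G2C9, and 1.69, 1.64 and 1.75 in Gcontrol, with both derivatives below Gcontrol. The Col6a3 to Col6a1 ratio was 0.582, 0.536 and 0.554 in G1C7, 0.705, 0.534 and 0.668 in G2C9, and 0.484, 0.46 and 0.497 in Gcontrol, with both derivatives above Gcontrol. Each of these 6 differences had an exact 2-sided permutation p of 0.1, the smallest that 3 against 3 libraries can give, and an adjusted p of 0.178 over 16 tests of 8 ratios. The groups were separate for 9 of the 16, which share the Gcontrol libraries and several genes. For single genes, 43.0% of all genes tested did not overlap Gcontrol in G1C7 and 43.3% in G2C9. No such share was computed for ratios of other genes. The 8 ratios also included Col3a1, Col5a1 and Col12a1 over Col1a1, chains of different collagens, and Col4a5 over Col4a1. Col3a1 and Col12a1 over Col1a1 were separate from Gcontrol in G2C9, and Col4a5 over Col4a1 in G1C7. The Col6a1 to Col6a2 ratio overlapped between the groups, at 1.94 ± 0.213 in G1C7, 1.88 ± 0.162 in G2C9 and 1.86 ± 0.0114 in Gcontrol (SD, n = 3 each).

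The remaining tested basement membrane chains were Col4a5, Col7a1, Col15a1 and Col18a1, and none passed with 9 libraries. Col4a5, a type IV chain whose human form is mutated in Alport syndrome, had 17.2, 40.3 and 15.7 CPM in G1C7, 21.1, 21.1 and 39.5 CPM in G2C9, and 46.9, 47.0 and 51.4 CPM in Gcontrol. Each derivative library was below all Gcontrol libraries. It was at -0.99 ± 0.38 in G1C7 and -0.83 ± 0.38 in G2C9 (adjusted p = 0.112 and 0.196), and passed without G1C7 replicate 2, at -1.55 and -0.83 (adjusted p = 0.004 and 0.0274). Col18a1, whose product is the source of the fragment endostatin, had 64.4, 201 and 57.9 CPM in G1C7, 25.5, 24.2 and 57.7 CPM in G2C9, and 67.8, 64.2 and 69.6 CPM in Gcontrol. In G1C7 its log2 fold change of 0.68 ± 0.50 turned to -0.13 without replicate 2. Col7a1, the anchoring fibril collagen of skin, averaged 118 ± 34.5 CPM in G1C7, 74.2 ± 22.2 CPM in G2C9 and 71.7 ± 7.46 CPM in Gcontrol. With 1 library left out, Col7a1 passed in G1C7 only without G2C9 replicate 3, at 0.72 (adjusted p = 0.0362).

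The network collagens of high level showed no call against Gcontrol. Col6a1 had 325, 752 and 309 CPM in G1C7, 319, 322 and 539 CPM in G2C9, and 328, 299 and 344 CPM in Gcontrol. Only the libraries that stood apart lay outside the Gcontrol range on the high side. Col6a1 was at 0.51 ± 0.35 in G1C7 and 0.28 ± 0.35 in G2C9, and -0.03 ± 0.05 and -0.01 ± 0.05 without both of those libraries. Col6a2 and Col6a3, its partner chains, did not pass either, at 0.41 ± 0.27 and 0.71 ± 0.36 in G1C7 and 0.25 ± 0.27 and 0.69 ± 0.36 in G2C9. Col8a1, a short-chain collagen of lattices under endothelia, had 311, 444 and 295 CPM in G1C7, 330, 337 and 360 CPM in G2C9, and 283, 290 and 276 CPM in Gcontrol. Every derivative library was above every Gcontrol library, at 0.31 ± 0.15 in G1C7 and 0.27 ± 0.15 in G2C9 (adjusted p = 0.197 and 0.273). In G2C9, Col8a1 passed without G1C7 replicate 2, at 0.28 (adjusted p = 0.0155).

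Col8a2, the partner of Col8a1 in the lattice under the corneal endothelium, was barely read. It had 0, 0 and 4 reads in G1C7, 0, 0 and 2 reads in G2C9, and 12, 20 and 13 reads in Gcontrol (ENSMUSG00000056174.8, chromosome 4, 126286793 to 126314330, plus strand). The level in Gcontrol was 20.6 times that in G2C9 (95% counting interval 3.42 to 868) and 11.1 times that in G1C7 (2.81 to 99.6). It passed in G2C9 (adjusted p = 0.0454) and not in G1C7 (adjusted p = 0.0547). The call in G2C9 ended without any 1 of 7 libraries (adjusted p = 0.05 to 0.154), all but G1C7 replicates 2 and 3. Without G1C7 replicate 3, which holds all 4 reads of its group, it passed in G1C7 (adjusted p = 0.0331). The other tested network chain, Col6a4, ranged from 0.0365 to 0.728 CPM.

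The transmembrane collagens moved in both directions. Col25a1, whose product is found in amyloid plaques of the human brain and guides motor nerves to muscle in mice, was higher in G2C9 (ENSMUSG00000058897.18, chromosome 3, 130131501 to 130599877, plus strand). It had 1.54, 1.51 and 6.75 CPM in G2C9 and 0.449, 1.06 and 0.183 CPM in G1C7, against 0.129, 0.185 and 0.317 CPM in Gcontrol. All G2C9 libraries were above all others, and G1C7 overlapped Gcontrol. Its difference from Gcontrol was 3.94 ± 0.85 in G2C9 (adjusted p = 0.0173) and 1.40 ± 0.83 in G1C7 (adjusted p = 0.287). The call in G2C9 ended without Gcontrol replicate 1, 2 or 3, at 3.68, 3.86 and 4.36 (adjusted p = 0.0868, 0.0818 and 0.059). With the 2 libraries that stood apart left out, it was 2.84 ± 0.40 and passed. G1C7 against G2C9 gave -2.53 ± 0.78 (adjusted p = 0.142).

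Col23a1, a transmembrane collagen shed from the cell surface, was lower in G1C7 (ENSMUSG00000063564.13, chromosome 11, 51289920 to 51583918, plus strand). It had 1.44, 2.26 and 1.19 CPM in G1C7, 3.84, 3.20 and 9.45 CPM in G2C9, and 10.3, 9.34 and 8.71 CPM in Gcontrol. G1C7 was below the other groups in every library, and G2C9 replicate 3 lay within the Gcontrol range. Against Gcontrol the log2 difference was -2.53 ± 0.43 in G1C7 (adjusted p = 0.00546), called without each library. In G2C9 it was -0.78 ± 0.41 (adjusted p = 0.258) and passed without replicate 3, at -1.42 (adjusted p = 0.0158).

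Col17a1, which links skin cells to the basement membrane in hemidesmosomes, was lower in G1C7 (ENSMUSG00000025064.15, chromosome 19, 47646344 to 47692094, minus strand). It had 1.05, 0.692 and 1.13 CPM in G1C7, 1.78, 1.84 and 1.52 CPM in G2C9, and 3.10, 3.51 and 2.49 CPM in Gcontrol. The groups were separate, G1C7 lowest, and the libraries that stood apart were the lowest of their groups. Col17a1 was at -1.66 ± 0.25 in G1C7 (adjusted p = 0.00335), called without each library, and -0.82 ± 0.25 in G2C9 (adjusted p = 0.061). In G2C9 it passed without G1C7 replicate 2, at -0.82 (adjusted p = 0.0151).

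Among the fibril-associated collagens, Col22a1, which marks tissue junctions such as that of muscle and tendon, was lower in G1C7 (ENSMUSG00000079022.10, chromosome 15, 71795795 to 72034227, minus strand). It had 5, 0 and 0 reads in G1C7, 19, 28 and 13 reads in G2C9, and 30, 21 and 28 reads in Gcontrol. The level in Gcontrol was 15.6 times that in G1C7 (95% counting interval 4.20 to 66.7), and G2C9 overlapped Gcontrol. The edgeR test gave an adjusted p of 0.0194 in G1C7, and the call ended without G1C7 replicate 3 or any 1 Gcontrol replicate (adjusted p = 0.0534 to 0.0751).

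Col16a1 and Col12a1, which bind to fibre surfaces, were the abundant members of that type. Col16a1 had 112, 273 and 111 CPM in G1C7, 90.5, 92.2 and 167 CPM in G2C9, and 226, 210 and 227 CPM in Gcontrol. Col12a1 had 257, 962 and 245 CPM in G1C7, 430, 306 and 837 CPM in G2C9, and 515, 430 and 536 CPM in Gcontrol. For both, G1C7 replicate 2 was the highest of all libraries, and only Col16a1 in G2C9 had no overlap with Gcontrol. Col16a1 was at -0.42 ± 0.37 in G1C7 and -0.92 ± 0.37 in G2C9 (adjusted p = 0.487 and 0.147), and passed without G1C7 replicate 2, at -0.98 and -0.92 (adjusted p = 0.0199 and 0.0144). Col12a1 was at -0.02 ± 0.55 in G1C7, with -0.97 without replicate 2 and 0.28 and 0.30 without replicates 1 and 3. In G2C9 it was at 0.09 ± 0.55, with -0.42 without replicate 3. Col9a3 and Col20a1 ranged from 0.335 to 0.746 CPM and from 0.0882 to 1.27 CPM, and Col20a1 passed in G2C9 without G1C7 replicate 2, at 1.63 (adjusted p = 0.0447).

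Col4a3bp had 91.9, 51.6 and 86.4 CPM in G1C7, 91.9, 89.4 and 56.0 CPM in G2C9, and 44.7, 46.4 and 44.5 CPM in Gcontrol. Unlike most collagens, it was lowest in the library that stood apart in each derivative, yet all 6 derivative libraries were above Gcontrol. It was at 0.76 ± 0.24 in G1C7 and 0.81 ± 0.24 in G2C9 (adjusted p = 0.0627 and 0.0605). Leaving out G1C7 replicate 2 let Col4a3bp pass in G1C7 at 0.98 and in G2C9 at 0.81 (adjusted p = 0.00629 and 0.00941), and without G2C9 replicate 3 at 0.76 and 1.01 (adjusted p = 0.0322 and 0.0221).

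Of the genes that make, process, bind and break down collagen, Adamts2 and Adamts3 were nearly unread in both derivatives. Of 13 tested genes of processing and cross-linking, 1 was higher and 3 lower in G1C7, beside 8.77% and 8.73% of all genes. In G2C9, 4 were lower and the edgeR test called no other, beside 7.22% of all genes lower and 6.25% higher. Adamts2 and Adamts3 encode enzymes that remove the amino-terminal end of procollagens, and both were among the 3 lower genes of G1C7 and the 4 of G2C9. Adamts2 had 0, 0.146 and 0 CPM in G1C7, 0.0792, 0 and 0.0781 CPM in G2C9, and 11.9, 11.1 and 12.4 CPM in Gcontrol. With 8 reads in each derivative against 1945 in Gcontrol, the level in Gcontrol was 241 times that in G1C7 (95% counting interval 93.7 to 886) and 223 times that in G2C9 (86.8 to 820). Adamts3 had 0 reads in all G1C7 libraries and 7 reads in G2C9, against 620 in Gcontrol. It was at least 102-fold lower in G1C7, taking 6 reads over the group as the floor, and Gcontrol was 81.1 times G2C9 (27.5 to 262).

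The adjusted p of Adamts2 was 0.00105 in G1C7 and 0.00121 in G2C9, and that of Adamts3 was 0.00024 and 0.000468, called without each library. The lysyl oxidase Loxl4, which cross-links fibres, had 36.7, 40.9 and 35.7 CPM in G1C7, 39.4, 37.1 and 37.6 CPM in G2C9, and 64.4, 58.3 and 64.9 CPM in Gcontrol. It was at -0.73 ± 0.09 in G1C7 and -0.72 ± 0.09 in G2C9 (adjusted p = 0.00119 and 0.00144). The library that stood apart was 1.13 times the mean of the others in G1C7 and 0.982 times in G2C9. Loxl3, of the same family, was higher in G1C7 at 0.66 ± 0.14 (adjusted p = 0.0131), a call that ended without any 1 Gcontrol replicate (adjusted p = 0.0523 to 0.0615). Adamts14, a relative of Adamts2, was well read in all groups, with 67.3, 87.7 and 64.8 CPM in G1C7, 44.1, 42.5 and 42.9 CPM in G2C9, and 61.9, 54.7 and 67.4 CPM in Gcontrol. It was lower in G2C9 at -0.51 ± 0.13 (adjusted p = 0.0346), a call that ended without any 1 G2C9 or Gcontrol replicate (adjusted p up to 0.133), and it was higher in G1C7 than in G2C9 at 0.76 ± 0.13 (adjusted p = 0.0172). The call between the derivatives ended without G2C9 replicate 1 or 2, at 0.78 and 0.74 (adjusted p = 0.0633 and 0.0788).

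**Figure D5:**
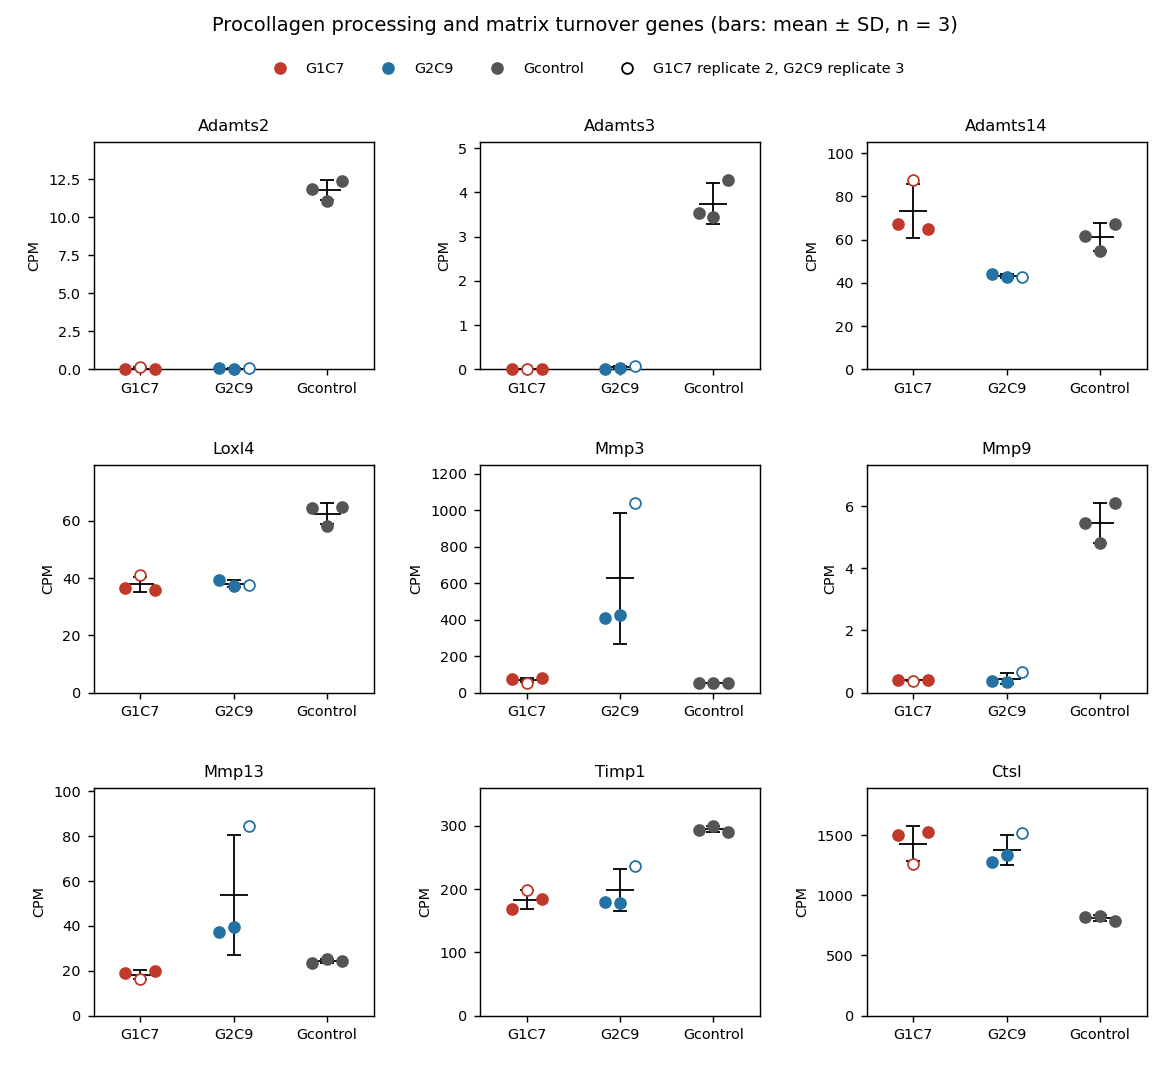
CPM by library of 9 genes of procollagen processing and matrix turnover, with bars for mean ± SD (n = 3) and open points for G1C7 replicate 2 and G2C9 replicate 3. Adamts2, Adamts3 and Mmp9 lie near 0 in both derivatives and at 3.44 CPM or more in each Gcontrol library, and Mmp3 is high in G2C9 alone.

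Of 11 tested genes of collagen breakdown and its inhibitors, 1 was higher and 3 lower in G1C7, beside 8.77% and 8.73% of all genes. In G2C9, 3 were higher and 4 lower, beside 6.25% and 7.22%. The lower genes included the inhibitors Timp1 and Timp2 in G1C7, and Timp1, Timp2 and Timp3 in G2C9. The gelatinase Mmp9 had 0.411, 0.364 and 0.402 CPM in G1C7, 0.356, 0.327 and 0.664 CPM in G2C9, and 5.47, 4.80 and 6.10 CPM in Gcontrol. It was lower, at -3.79 ± 0.31 in G1C7 and -3.60 ± 0.30 in G2C9 (adjusted p = 0.000213 and 0.0003). Cathepsin L (Ctsl), a lysosomal protease, was higher, at 0.82 ± 0.11 in G1C7 and 0.76 ± 0.11 in G2C9 (adjusted p = 0.00185 and 0.00294). These 4 calls were kept without each library in turn.

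The stromelysin Mmp3 had 409, 427 and 1039 CPM in G2C9 and 71.5, 53.9 and 77.4 CPM in G1C7, against 50.0, 51.8 and 51.4 CPM in Gcontrol. The collagenase Mmp13 had 37.2, 39.7 and 84.6 CPM in G2C9 and 19.1, 16.1 and 19.7 CPM in G1C7, against 23.3, 25.2 and 24.3 CPM in Gcontrol. Both were separate from the other groups in G2C9 and highest in its replicate 3. Mmp13 was at 1.15 ± 0.29 in G2C9 (adjusted p = 0.031), which ended without any 1 Gcontrol replicate (adjusted p = 0.102 to 0.118) and was 0.67 without G2C9 replicate 3. G1C7 against G2C9 gave -3.21 ± 0.36 for Mmp3 (adjusted p = 0.00264) and -1.56 ± 0.29 for Mmp13 (adjusted p = 0.024). The Mmp13 call ended without G1C7 replicate 1 or 3 or any 1 Gcontrol replicate (adjusted p = 0.0593 to 0.084).

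The metalloproteinase inhibitor Timp1 had 168, 198 and 184 CPM in G1C7, 180, 179 and 236 CPM in G2C9, and 294, 300 and 290 CPM in Gcontrol. It was lower in both derivatives, at -0.68 ± 0.12 in G1C7 and -0.57 ± 0.12 in G2C9 (adjusted p = 0.00672 and 0.0169). Timp2 was lower at -0.40 ± 0.08 in G1C7 and -0.42 ± 0.08 in G2C9 (adjusted p = 0.0128 and 0.0128), and Timp3 was lower in G2C9 at -0.56 ± 0.16 (adjusted p = 0.0486). The Timp2 call in G1C7 ended without any 1 Gcontrol replicate (adjusted p up to 0.0653). The calls of Timp1 and Timp2 in G2C9 ended without G2C9 replicate 1 or 2 or any 1 Gcontrol replicate (up to 0.0729 and 0.069). The Timp3 call was kept only without G1C7 replicate 2 and reached an adjusted p of 0.167 otherwise. In G1C7, Timp1 passed without each library.

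No gene of 20 tested that modify and fold the chains passed the edgeR test against Gcontrol or between the derivatives, beside 17.5% of all genes in G1C7, 13.5% in G2C9 and 3.36% between the derivatives. At an unadjusted p under 0.05 there were 4 in G1C7, 4 in G2C9 and 1 between the derivatives, and DESeq2 called 2, 3 and 0 and limma-voom 0, 1 and 0. The most abundant were Sparc, a collagen-binding protein, and P4hb, a subunit of prolyl hydroxylase. Sparc averaged 1608 ± 376 CPM in G1C7, 1207 ± 390 CPM in G2C9 and 2041 ± 26.4 CPM in Gcontrol, and passed in G2C9 without G1C7 replicate 2 or without G2C9 replicate 3 (adjusted p = 0.0201 and 0.00795). Nor did any of 9 tested collagen receptors pass in edgeR, with 1 in each comparison at an unadjusted p under 0.05, 1, 0 and 1 called by DESeq2 and 0 by limma-voom. Itgb1, the integrin chain of the main receptors, averaged 1259 ± 18.5 CPM in G1C7, 1230 ± 113 CPM in G2C9 and 1097 ± 29.6 CPM in Gcontrol. Ddr2, a receptor kinase for fibrillar collagen, averaged 335 ± 14.2, 335 ± 22.5 and 342 ± 17.3 CPM in the same groups. Without both libraries that stood apart, 15 of the 20 modifying genes passed in each derivative, 4 higher and 11 lower in G1C7 and 5 higher and 10 lower in G2C9. Of the 9 receptors, 2 were then higher and 3 lower in G1C7, and 3 were higher and 3 lower in G2C9. In that fit 26.4% of all genes were higher and 27.9% lower in G1C7, and 25.4% and 27.6% in G2C9.

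Of 16 tested fibril regulators and basement membrane partners, 1 was higher in G2C9, beside 6.25% of all genes. None passed in G1C7, beside 17.5% of all genes, where edgeR gave 3 at an unadjusted p under 0.05, DESeq2 called 2 and limma-voom 0. The gene higher in G2C9 was nidogen 1 (Nid1), which bridges laminin and type IV collagen, at 468, 441 and 359 CPM in G2C9 and 265, 327 and 246 CPM in G1C7, against 293, 281 and 306 CPM in Gcontrol. G2C9 lay above all other libraries while its Col4a1 and Col4a2 lay below them. Nid1 was at 0.53 ± 0.14 (adjusted p = 0.0349), and the call ended without G1C7 replicate 1, G2C9 replicate 1 or 2, or any 1 Gcontrol replicate (adjusted p = 0.0549 to 0.124). Fibronectin (Fn1), which helps collagen assemble at the cell surface, had 1335, 3490 and 1208 CPM in G1C7, 1490, 1227 and 2100 CPM in G2C9, and 1866, 1588 and 1972 CPM in Gcontrol. Thrombospondin 1 (Thbs1), a secreted matrix protein, had 750, 1560 and 706 CPM in G1C7, 1672, 1599 and 3009 CPM in G2C9, and 1832, 1724 and 1910 CPM in Gcontrol. Both were highest, within each derivative, in the library that stood apart. Without G1C7 replicate 2, Thbs1 passed in G1C7 at -1.32 (adjusted p = 0.00718) and was lower in G1C7 than in G2C9 at -1.52 (adjusted p = 0.0105), against -0.86 and -1.06 with 9 libraries, neither of which passed. Without both libraries that stood apart, 2 of the 16 genes were higher and 11 lower in G1C7, beside 26.4% and 27.9% of all genes. In G2C9, 5 were then higher and 6 lower, beside 25.4% and 27.6%.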

How the data were processed

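Polyadenylated RNA of 9 libraries was sequenced as stranded, paired reads, per the labels' protocols. The counts per gene that the authors deposited came from featureCounts 1.6.0 on GENCODE vM25 (GRCm38) per the file headers, after STAR 2.6.1c per the submitters' processing notes. The headers record no pair, strand or multi-mapping option, so each mate counted as 1 read, on either strand, and reads that matched several places or genes did not count. Reads over exon bases that genes share, also on opposite strands, were therefore lost. At most 6.07% of a collagen's exon bases overlapped another gene.

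Symbols came from a GENCODE vM21 table. The members and gene lists were chosen with earlier results of these data known. Of 55401 genes, 15659 passed filterByExpr. One edgeR 4.0.16 quasi-likelihood fit (R 4.3.3) of all 9 libraries with TMM factors (0.978 to 1.03) tested 3 contrasts, with Benjamini-Hochberg adjustment over all genes tested; "passed", "called", "higher" and "lower" mean an adjusted p under 0.05. The common biological coefficient of variation was 0.248, with 6 residual degrees of freedom. The SE of a log2 fold change is its size divided by the root of its F statistic. Level ratios of rare genes have 95% counting intervals on read pairs. The fit was tested on simulated counts. Every library's values are given for members that passed a test and the 2 highest per kilobase of each type; of each list, up to 3 passing genes per direction, or the 2 most abundant. Values of Col3a1, Col5a1, Col4a5, Col18a1, the named exceptions with 1 library left out, Adamts14 and Timp2 in G2C9, and the markers were added after they were seen. Alternatives were DESeq2 1.42.0, limma 3.58.1 voom, RLE factors, no filter, a replicate block, each library left out, and, added later, both libraries that stood apart left out.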

Additional observations from a re-analysis of the deposited data

Results flagged for a closer look

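Several genes differed between the derivatives in the direct contrast of G1C7 against G2C9, with both set against the same Gcontrol libraries. Among the collagens, the log2 difference was 0.78 for Col4a1 and 0.78 for Col4a2, with G1C7 higher, and -4.38 for Col11a1, with G1C7 lower (edgeR, adjusted p = 0.00246, 0.0199 and 0.0168). Among the genes of collagen processing and breakdown, it was 0.76 for Adamts14, with G1C7 higher, and -3.21 for Mmp3 and -1.56 for Mmp13, with G1C7 lower (adjusted p = 0.0172, 0.00264 and 0.024).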

How the results depend on the processing

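Of the 15 collagen results called over the 3 comparisons, 6 were called without each of the 9 libraries and under all 14 alternatives listed at the outset: Col11a1, Col17a1 and Col23a1 in G1C7, Col4a1 and Col4a2 in G2C9, and Col4a1 between the derivatives. The counts moved with G1C7 replicate 2 and G2C9 replicate 3, and the cause was not tested. With both left out, 8581 genes were called in G1C7, 8383 in G2C9 and 4320 between the derivatives, against 2740, 2109 and 526 with 9 libraries; collagens called higher were then 3, 3 and 5, and lower 18, 18 and 10, and members of the 5 gene lists 50, 50 and 37, against 8, 12 and 3. With 1 library left out, the genes called ranged from 1181 to 4133 in G1C7, 878 to 4113 in G2C9 and 186 to 1286 between the derivatives. Higher collagens ranged from 0 to 2, 0 to 3 and 1 to 2, lower collagens from 3 to 14, 2 to 9 and 0 to 5, and list members from 6 to 18, 6 to 22 and 2 to 10.

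Same-numbered libraries correlated at -0.557 to 0.409 in their deviations from the group mean, and 2 of 9 correlated best with their own number. The libraries that stood apart carry different numbers and weigh on these deviations. The check therefore cannot show whether the replicate numbers pair the libraries. With the replicate block, 1532, 1114 and 164 genes were called; higher collagens were 0, 0 and 1, lower ones 3, 2 and 0 in edgeR, and list members called were 7 in G2C9 and 1 between the derivatives. DESeq2 called 3862 genes in G1C7, 3190 in G2C9 and 1267 between the derivatives. It called 2 higher collagens in G1C7 and 5 lower between the derivatives, and 15 list members in G1C7 and 8 between the derivatives. Without a filter, edgeR called 0 higher collagens in G1C7 and 2 lower in G2C9. Lower collagens called by limma-voom were 7 in G1C7, 6 in G2C9 and 2 between the derivatives.

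Without both libraries that stood apart, the log2 fold change changed sign, in G1C7, for Col18a1 (-0.13), Col6a1 (-0.0278) and Fn1 (-0.51), in G2C9 for Col12a1 (-0.42), Col15a1 (-0.57), Col3a1 (-0.40), Col6a1 (-0.0139), Col7a1 (-0.22) and Ddr2 (0.0153), and between the derivatives for Fn1 (-0.0947), Itgb1 (-0.0455) and P4hb (0.0028). Between the derivatives it also did so for 9 of 29 collagens: Col5a1 (-0.029), Col5a2 (-0.95), Col5a3 (-0.70), Col6a1 (-0.0139), Col6a2 (-0.0371), Col6a3 (-0.14), Col6a4 (-0.25), Col8a1 (-0.14) and Col9a3 (-0.0411), of which Col5a2 and Col8a1 passed in that fit. Under limma-voom it changed sign for Fn1 in G1C7 (-0.0184) and Col12a1 (-0.0379) and Col15a1 (-0.0661) in G2C9. With 1 library left out, it spanned 0 in G1C7 for Col12a1 (-0.97 to 0.30), Col18a1 (-0.13 to 0.97), Col1a2 (-0.75 to 0.20), Col6a1 (-0.0254 to 0.73), Col6a4 (-1.96 to 0.25) and Fn1 (-0.50 to 0.41). In G2C9 it did so for Col12a1 (-0.42 to 0.37), Col15a1 (-0.56 to 0.33), Col27a1 (-0.45 to 0.0755), Col3a1 (-0.39 to 0.41), Col6a1 (-0.00914 to 0.41), Col7a1 (-0.21 to 0.21) and Ddr2 (-0.0832 to 0.0201). Between the derivatives it did so for Ddr2 (-0.054 to 0.052), Fn1 (-0.33 to 0.58), Itgb1 (-0.0445 to 0.0823) and P4hb (-0.10 to 0.036), and for 15 of 29 collagens: Col1a1, Col1a2, Col5a1, Col5a2, Col5a3, Col12a1, Col16a1, Col20a1, Col4a5, Col6a1, Col6a2, Col6a3, Col6a4, Col8a1 and Col8a2. None of these sign changes concerns a result that was called with 9 libraries. Depth limits the folds of Col8a2, Col22a1 and Adamts3, with 2, 5 and 0 reads in the lowest group.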
